A study of Bos taurus with 6 samples.

Results

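The genes described are the metalloproteases of the MMP, ADAM and ADAMTS families and their tissue inhibitors, the TIMPs, in cells of the cow (Bos taurus) uterine lining. They were chosen by symbol, with earlier results of these data known: MMP, ADAM or ADAMTS followed by a number, and TIMP1 to TIMP4. This gave 62 of the 34733 named rows of the deposited tables, 20 MMP, 19 ADAM, 19 ADAMTS and 4 TIMP rows, which carry 61 symbols because ADAM21 is listed at 2 loci. RNA came from side population (SP) cells, which pump out the DNA dye Hoechst, and main population (MP) cells, which keep it, with 3 libraries of each. Per the labels' protocols both were sorted from one kind of starting material: endometrium between the caruncles of slaughterhouse uteri in the luteal phase, freed of luminal epithelium and digested with collagenase, with dead cells gated out by propidium iodide and verapamil as the transporter blocker that marks the gate. No animal age, breed or other treatment is given, no antibody gate is stated, and the labels do not say that replicates came from separate animals, and the p-values below then describe the scatter of these libraries alone, part of which may be technical.

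MMPs, ADAMs and ADAMTSs are zinc enzymes. MMPs cut collagens and other matrix proteins, and most leave the cell as inactive proenzymes. Most ADAMs sit in the plasma membrane, where the active ones release the outer parts of receptors, growth factors and adhesion molecules. ADAMTSs are secreted, bind the matrix and cut proteoglycans such as versican and aggrecan, or trim procollagens. TIMPs block these enzymes in the active site, with different preferences: TIMP3 stays bound to the matrix and also inhibits several ADAMs and ADAMTSs, whereas TIMP1 and TIMP2 diffuse. In the endometrium these genes are known for the breakdown and rebuilding of matrix over the cycle and at implantation.

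Expression is given as FPKM, a count of sequenced fragments divided by the length of the transcript and by the number of fragments mapped in that library. It is per length and so can be set side by side between genes, and where 3 values of a population follow each other they are those of replicates 1, 2 and 3. The libraries held FPKM sums of 647501 to 963629. The spacing of low values put the depth of the other libraries relative to SP replicate 1 at 1.60 and 1.82 for SP replicates 2 and 3. For MP replicates 1 to 3 it was 2.32, 3.18 and 1.99. By this rough estimate a value near 0 is less certain in SP than in MP. The number of named genes above 0 did not split by population, at 16775, 17261 and 18150 in SP and 17585, 17806 and 16993 in MP. The sorted cells were checked against marker lists. Endothelial markers were higher in SP (9 of 10 called, none lower; summed level 1169 to 1816 FPKM in SP and 117, 250 and 696 FPKM in MP replicates 1 to 3). Stromal fibroblast markers were lower in SP (9 of 10 called, of which DPT was under 1 FPKM in every SP library, so that it could be tested only if MP was higher; summed level 291 to 490 FPKM in SP and 11517, 5304 and 3129 FPKM in MP replicates 1 to 3). No marker of these 2 lists was listed at 0 in all libraries of a population, and the fibroblast receptor PDGFRA was at 0.545, 0.546 and 1.56 FPKM in SP against 24.0, 18.2 and 8.18 FPKM in MP. In such bulk samples, fewer cells of a type and less RNA per cell cannot be told apart. Per the file headers all MP columns carry the word micro and no SP column does, and whatever it marks cannot be told apart from the population. The same headers give each SP library and the MP library with its replicate number a common stroma number, which may name a shared source, but the labels do not say so.

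Of the 62 rows, 22 reached 1 FPKM in at least 3 of the 6 libraries and were tested (limma on log2 of FPKM + 1, Benjamini-Hochberg adjusted over all 12127 tested genes, threshold 0.05; the words "called", "rose" and "fell" mean that a gene passed it, and fold changes on this scale understate the change of low genes). In SP 7 rose, namely MMP28, ADAM9, ADAM10, ADAMTS1, ADAMTS4, ADAMTS9 and TIMP3. MMP2, MMP19, MMP23, ADAMTS2, ADAMTS5 and TIMP1, 6 in all, fell. Among all tested genes 39.2% were called, 20.5% that rose and 18.7% that fell, against 31.8% and 27.3% of the tested members. The median log2 fold change of the tested members was -0.085 and that of all tested genes 0.0075. SP and MP values lay apart, with no overlap, in 14 of the 22 tested members (63.6%) and in 54.8% of all tested genes. The members thus split in both directions. Of those that fell, ADAMTS2 and ADAMTS5 were under 1 FPKM in every SP library, so the filter fixed their direction. None of 4 tested ADAM genes fell, while 3 of 8 tested MMP genes fell and 1 rose. These counts are too small to set a family apart from the 18.7% and 20.5% of all tested genes. Of 9 untested ADAM rows with a value, 5 were lower in every SP than in every MP library. With no filter 3 of them were called lower. Leaving out SP replicate 1, 2 or 3 left 2, 3 and 3 higher calls, leaving out MP replicate 1 or 2 left 1 and 2, and leaving out MP replicate 3 gave 10; lower calls ranged from 4 to 7. With no filter 3 members were called higher and 8 lower, of which 4 were too low for the main test. The 4 calls that held in all 16 alternatives were ADAM9, ADAMTS5, MMP19 and TIMP1. A two-sided exact permutation test on 1 gene, with 3 libraries in each group, has p = 0.1 as its smallest value, which it takes wherever the groups are said not to overlap.

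**Figure D1:**
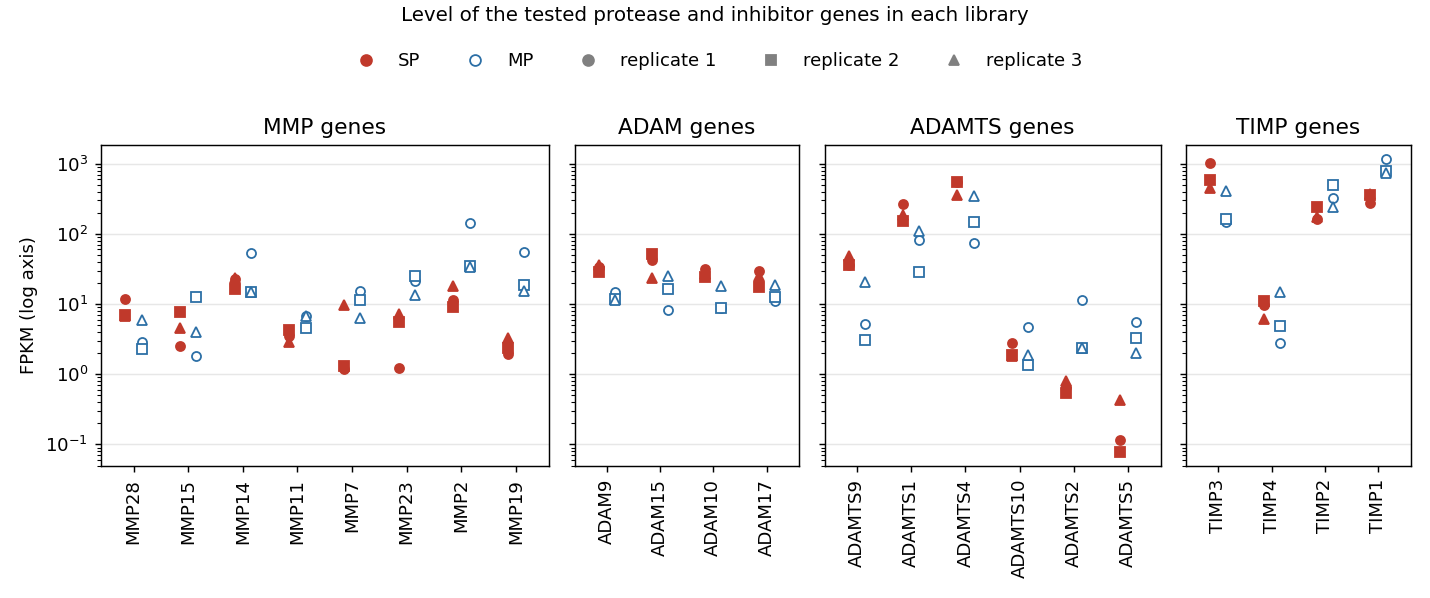
FPKM on a log axis of the 22 tested genes in each library, in 4 panels by family, with filled symbols for SP, open symbols for MP and a symbol shape per replicate. TIMP1 and MMP19 lie lower in every SP than in every MP library, and ADAM9, ADAMTS9 and TIMP3 lie higher.

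**Figure D2:**
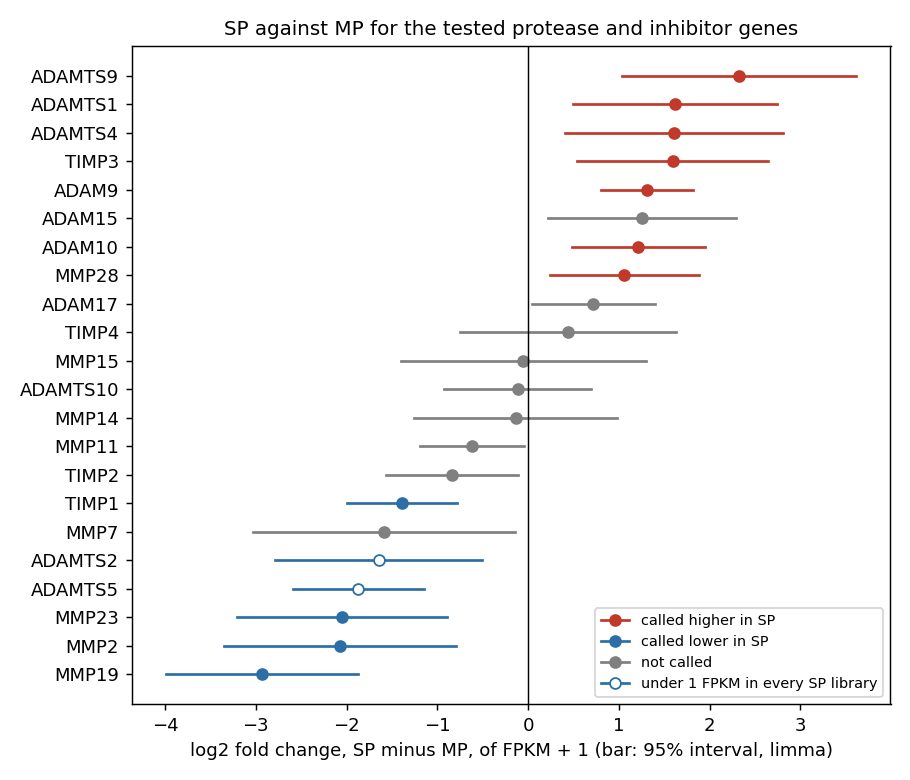
Log2 fold change of FPKM + 1, SP minus MP, with the limma 95% interval, for the 22 tested genes sorted by size. The 7 genes called higher lie between 1.06 and 2.32, the 6 called lower between -2.93 and -1.39, and open circles mark ADAMTS2 and ADAMTS5, which were under 1 FPKM in every SP library.

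Among the MMPs, the gelatinase MMP2 and the secreted enzyme MMP19 fell in SP, and the membrane-bound MMP14 did not pass. MMP2, which cuts denatured collagen and basement membrane collagen (chromosome 18, 23753066 to 23779474, coordinates of build ARS-UCD1.2) had values of 11.4, 9.14 and 18.0 FPKM in SP and 141, 35.2 and 33.3 FPKM in MP. The groups did not overlap, and MP replicate 1 stood far above the other libraries. Its log2 fold change was -2.07 ± 0.55 (SE; limma adjusted p = 0.0226). The call was lost without SP replicate 1 or 2 (limma adjusted p = 0.0674 and 0.0681) and with no filter on low values (0.0584), and without MP replicate 1 the log2 fold change was -1.40.

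MMP19, a secreted MMP that acts on basement membrane proteins (chromosome 5, 57426889 to 57433004), was at 1.93, 2.36 and 3.24 FPKM in SP and at 55.4, 18.7 and 15.6 FPKM in MP. It fell by 2.93 ± 0.46 on the log2 fold change scale (SE; limma adjusted p = 0.00424), more than any other tested member with 1 FPKM added, whereas with 0.1 FPKM added ADAMTS5 fell more (-3.65 against -3.31). As for MMP2, MP replicate 1 was the highest library. MMP23 (chromosome 16, 51003855 to 51006360), an unusual membrane-anchored MMP without the hemopexin domain, was at 1.22, 5.52 and 7.28 FPKM in SP and at 21.2, 25.4 and 13.6 FPKM in MP. It fell by 2.05 ± 0.50 in log2 units (SE; limma adjusted p = 0.0167), and without MP replicate 2 the adjusted p was 0.0544.

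MMP28, or epilysin, was the only MMP that rose (chromosome 19, 14587763 to 14613457). It was at 12.0003, 7.03 and 6.82 FPKM in SP and at 2.88, 2.32 and 6.004 FPKM in MP, so MP replicate 3 came close to SP replicates 2 and 3. The log2 fold change of MMP28 was 1.06 ± 0.35 (SE; limma adjusted p = 0.0465), and it was called in 9 of 16 alternatives. It lost the call whenever a library other than MP replicate 3 was left out (limma adjusted p from 0.0762 to 0.144), with no filter (0.0949) and with the replicate number as a block (0.0558).

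MMP14, the collagenase of the cell surface that activates pro-MMP2 (chromosome 10, 21924877 to 21977729), was at 22.9, 16.4 and 23.9 FPKM in SP and at 53.8, 14.9 and 14.8 FPKM in MP. The groups overlapped, since MP replicate 1 was above and the other MP libraries below every SP library. Its log2 fold change was -0.14 with a 95% interval from -1.26 to 0.98, and turned positive without MP replicate 1 (0.46), without SP replicate 2 (0.026) and with libraries rescaled to equal sums (0.077). The listed MMP14 locus also covers LRP10 and RBM23, and RBM23 rose (log2 fold change 0.75). Relative to MMP2 in the same library, MMP14 was at 2.02, 1.79 and 1.33 in SP and at 0.381, 0.424 and 0.445 in MP. MMP14 transcripts thus outnumbered those of MMP2 per length in all 3 SP libraries and in no MP library.

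The other tested MMPs did not pass. MMP11, or stromelysin 3, was at 3.53, 4.21 and 2.88 FPKM in SP and at 6.78, 4.49 and 6.72 FPKM in MP; the groups did not overlap, but the limma adjusted p was 0.0826. MMP7, or matrilysin, known from epithelia, was at 1.17, 1.30 and 9.66 FPKM in SP and at 15.2, 11.3 and 6.24 FPKM in MP. SP replicate 3 lay inside the MP range (limma adjusted p = 0.0769), and without it MMP7 was called lower (log2 fold change -2.34, limma adjusted p = 0.0133). MMP15, a membrane-type MMP, was at 2.52, 7.79 and 4.54 FPKM in SP and at 1.84, 12.7 and 3.96 FPKM in MP, and the groups overlapped widely (95% interval of the log2 fold change -1.41 to 1.30). In each population MMP15 was highest in replicate 2 and lowest in replicate 1. The sum of 9 epithelial markers had the same order, at 191, 1786 and 986 FPKM in SP and 999, 4655 and 1252 FPKM in MP; none of the 9 was called and none was listed at 0, and their part in the MMP15 values was not tested.

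**Figure D3:**
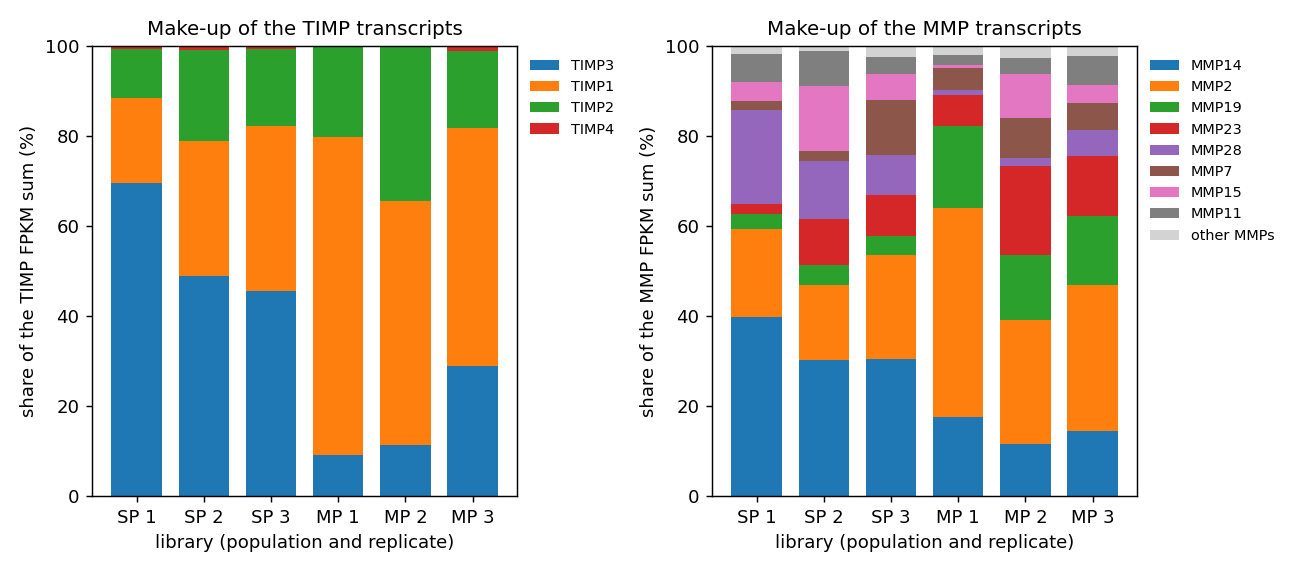
Stacked bars of the share (%) of each TIMP in the TIMP FPKM sum, left, and of each MMP in the MMP FPKM sum, right, for each of the 6 libraries. TIMP3 takes 45.5% to 69.7% in SP and 9.09% to 29.0% in MP, and MMP14 takes 30.2% to 39.8% in SP and 11.6% to 17.7% in MP.

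The summed level of all 20 MMP rows was 57.7, 54.4 and 78.2 FPKM in SP and 304, 129 and 102 FPKM in MP, with no overlap. Its make-up differed as well. MMP14 had the largest share in each SP library, 39.8%, 30.2% and 30.6%, and MMP2 the largest in each MP library, 46.3%, 27.4% and 32.5%. MMP19 made up 3.35% to 4.33% of the sum in SP and 14.6% to 18.2% in MP. Sums of chosen genes are given as a description, without a test.

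All 4 tested ADAM genes encode active proteases of the cell surface, and their values were higher on average in SP. ADAM9, a sheddase found in many tissues (chromosome 27, 34152271 to 34242502), was at 33.6, 29.0 and 36.3 FPKM in SP and at 14.7, 11.9 and 11.4 FPKM in MP. The replicates of each population lay close together and far from the other population. ADAM9 rose by 1.31 ± 0.22 (SE; limma adjusted p = 0.00521). ADAM10, which releases the outer part of Notch receptors and cadherins (chromosome 10, 51536002 to 51679260), was at 31.9, 24.2 and 27.1 FPKM in SP and at 8.73, 8.92 and 18.3 FPKM in MP, where replicate 3 stood nearest to SP. It rose by 1.21 ± 0.32 (SE; limma adjusted p = 0.0208), a call lost without SP replicate 1 or 3 or MP replicate 1 or 2 (limma adjusted p from 0.0574 to 0.0703).

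ADAM17, the enzyme that releases tumour necrosis factor (chromosome 11, 87917517 to 87973214), was at 29.7, 17.6 and 25.1 FPKM in SP and at 11.2, 12.7 and 19.0 FPKM in MP. The value in MP replicate 3 exceeded that in SP replicate 2, and ADAM17 did not pass (log2 fold change 0.72 ± 0.29 SE, 95% interval 0.042 to 1.40; limma adjusted p = 0.0844), though it was called without MP replicate 3 (0.0402) and with libraries rescaled to equal sums (0.0298). Its locus overlaps that of IAH1, which fell (log2 fold change -1.48). ADAM15, which carries an integrin-binding site, was at 43.2, 51.5 and 23.3 FPKM in SP and at 8.11, 16.1 and 25.4 FPKM in MP. SP replicate 3 fell below MP replicate 3 (log2 fold change 1.26 ± 0.45 SE; limma adjusted p = 0.0563). ADAM15 was called without SP replicate 3 or MP replicate 3 (limma adjusted p = 0.0465 and 0.0246) and with equal sums (0.018). It was also called with the ribosomal protein and mitochondrially encoded genes removed (limma adjusted p = 0.0393), a fit that likewise rescaled to equal sums. The ratio of ADAM10 to ADAM17 within a library was 1.07, 1.37 and 1.08 in SP and 0.781, 0.700 and 0.965 in MP, so ADAM10 was the more abundant per length in SP and ADAM17 in MP. Together these 4 genes made up 98.3% to 99.2% of the summed ADAM level in SP and 87.4% to 95.5% in MP.

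The ADAMTS family held the most abundant proteases among the members. Within the group that cuts proteoglycans ADAMTS1, ADAMTS4 and ADAMTS9 rose, and ADAMTS5 fell, its direction being fixed by the filter. ADAMTS4, or aggrecanase 1 (chromosome 3, 8303802 to 8311858), was at 551, 559 and 357 FPKM in SP and at 74.3, 148 and 347 FPKM in MP. The groups did not overlap, but MP replicate 3 came within 10.1 FPKM of SP replicate 3. The log2 difference was 1.61 ± 0.52 (SE; limma adjusted p = 0.042). The call held in 9 of 16 alternatives and was lost without any library other than MP replicate 3 (limma adjusted p from 0.0618 to 0.113). It was lost with no filter (0.0943) and with the replicate number as a block (0.0568) as well. The log2 difference was 1.08 without MP replicate 1 (limma adjusted p = 0.0996) and 2.18 without MP replicate 3 (0.00666).

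ADAMTS1, which cuts versican and is needed for follicle rupture in the ovary (chromosome 1, 9583735 to 9592432), was at 264, 152 and 188 FPKM in SP and at 81.3, 28.2 and 109 FPKM in MP. No MP value reached an SP value. It rose by 1.62 ± 0.49 (SE; limma adjusted p = 0.0336), a call lost whenever a library other than MP replicate 3 was left out (limma adjusted p from 0.0549 to 0.105; log2 fold change 1.05 without MP replicate 2) and with no filter (0.0774). ADAMTS9, a relative with the same versican-cutting activity (chromosome 22, 36444662 to 36923586), was at 35.6, 36.3 and 49.0 FPKM in SP and at 5.21, 3.12 and 20.3 FPKM in MP. It had the largest rise among the tested members, 2.32 ± 0.56 in log2 units (SE; limma adjusted p = 0.016). The call was lost without SP replicate 3 or MP replicate 1 (limma adjusted p = 0.0525 and 0.0517). Its locus overlaps that of LOC101906240, which was at 0.970 to 6.37 FPKM and did not pass.

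ADAMTS5, or aggrecanase 2, fell where its relatives rose (chromosome 1, 9440880 to 9491324). It was at 0.115, 0.0788 and 0.428 FPKM in SP and at 5.56, 3.31 and 1.98 FPKM in MP, and differed by -1.87 ± 0.31 in log2 units (SE; limma adjusted p = 0.00515). Because every SP value was under 1 FPKM, the gene could be tested only if MP was higher, so the filter fixed its direction; with no filter it was called too (limma adjusted p = 0.0184). ADAMTS1 and ADAMTS5 are next to each other on chromosome 1, 92.4 kb apart with no listed gene between them. The ratio of ADAMTS1 to ADAMTS5 was 2289.9, 1931 and 439 in SP and 14.6, 8.53 and 55.3 in MP. These neighbours were thus called in opposite directions, that of ADAMTS5 being fixed by the filter. Since each gene was apart between the populations, the ratios had to be apart too and add no support. In SP they rest on ADAMTS5 values under 1 FPKM.

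ADAMTS2, which removes the amino-terminal propeptide of fibrillar procollagens (chromosome 7, 2015432 to 2260679), was at 0.656, 0.541 and 0.807 FPKM in SP and at 11.5, 2.34 and 2.39 FPKM in MP. It was likewise under 1 FPKM in every SP library, which fixed its direction. Its log2 fold change was -1.64 ± 0.49 (SE; limma adjusted p = 0.0329), and the call was lost without SP replicate 1, 2 or 3 (0.0842, 0.084 and 0.0745) and with no filter (0.0835). Without MP replicate 1, the highest library, the log2 fold change was -1.01 (limma adjusted p = 0.019). ADAMTS10, known for binding fibrillin microfibrils, was at 1.81 to 2.80 FPKM in SP and 1.36 to 4.74 FPKM in MP and did not pass (limma adjusted p = 0.806). The summed level of the 19 ADAMTS rows was 858, 751 and 600 FPKM in SP and 193, 189 and 486 FPKM in MP, of which ADAMTS1, ADAMTS4 and ADAMTS9 made up 98.99% to 99.5% in SP and 83.5% to 98.1% in MP.

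Among the inhibitors TIMP3 rose and TIMP1 fell in SP. TIMP3, the inhibitor held in the matrix (chromosome 5, 71125380 to 71612518), was at 1022 FPKM in SP replicate 1, 592 in replicate 2 and 456 in replicate 3, and at 149, 165 and 407 FPKM in MP. SP replicate 1 was the highest and MP replicate 3 came near the lowest SP library. TIMP3 rose by 1.59 ± 0.45 (SE; limma adjusted p = 0.0284), and the call was lost when SP replicate 1 or 2, or MP replicate 1 or 2, was left out (limma adjusted p from 0.0615 to 0.0893) and with no filter (0.0685). The listed TIMP3 locus lies together with SYN3, which was at 3.89, 1.09 and 1.196 FPKM in SP and 0 to 0.241 FPKM in MP, far below TIMP3.

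TIMP1, a secreted inhibitor of most soluble MMPs (chromosome X, 85918891 to 85992835), was at 275, 363 and 368 FPKM in SP and at 1156, 777 and 742 FPKM in MP. Every MP value was above every SP value by at least 375 FPKM. It fell by 1.39 ± 0.26 in log2 units (SE; limma adjusted p = 0.00727). Its locus overlaps that of ARAF, which was at 22.9 to 38.4 FPKM and did not pass. TIMP2, which inhibits MMP2 and also takes part in its activation by MMP14 (chromosome 19, 53460835 to 53512593), was at 161, 243 and 172 FPKM in SP and at 328, 490 and 241 FPKM in MP. SP replicate 2 lay just above MP replicate 3, and the gene did not pass (log2 fold change -0.84 ± 0.32 SE; limma adjusted p = 0.0674); without MP replicate 3 it was called lower (-1.08; 0.0319), as it was with the replicate number as a block (0.0383). TIMP4 was at 9.59, 10.9 and 6.03 FPKM in SP and at 2.75, 4.92 and 15.1 FPKM in MP, where replicate 3 was the highest of all libraries. It did not pass (limma adjusted p = 0.517), but without MP replicate 3 it was called higher (log2 fold change 1.03; limma adjusted p = 0.0499).

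The sum of the 4 TIMPs overlapped between the populations, at 1468, 1209 and 1001 FPKM in SP and 1636, 1437 and 1404 FPKM in MP, while the shares of TIMP3 and TIMP1 in it did not. TIMP3 made up 69.7%, 48.9% and 45.5% of the sum in SP and 9.09%, 11.5% and 29.0% in MP. The share of TIMP1 was 18.7%, 30.0% and 36.7% in SP and 70.7%, 54.1% and 52.8% in MP. The shares of TIMP2 (10.97% to 20.1% in SP, 17.1% to 34.1% in MP) and TIMP4 (0.602% to 0.902% and 0.168% to 1.07%) overlapped. TIMP3 stood at 3.72, 1.63 and 1.24 times TIMP1 in SP and at 0.129, 0.212 and 0.548 times TIMP1 in MP, so the leading inhibitor transcript was TIMP3 in all 3 SP libraries and TIMP1 in all 3 MP libraries. The ratio of TIMP3 to the summed ADAMTS level overlapped, at 1.19, 0.788 and 0.759 in SP and 0.772, 0.873 and 0.836 in MP. TIMP3 and the ADAMTS sum were both higher in SP.

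Across the tested members MP replicate 3 was the MP library nearest to the SP mean in 17 of 22 genes, and MP replicate 1 the farthest in 15 of 22. MP replicate 3 was the highest MP library in 6 of the 7 genes that rose, and MP replicate 1 the highest in 5 of the 6 that fell. These positions were not counted over all tested genes, so they are not shown to be particular to the members. The endothelial marker sum was highest in MP replicate 3 and the fibroblast marker sum in MP replicate 1, as given above. Mitochondrially encoded genes made up 23.4% of the FPKM sum in MP replicate 3 and 9.87% to 16.4% in the other libraries. Their part in the members' values was not tested beyond the fit without them, which also left out ribosomal protein genes and rescaled the libraries. Leukocyte markers were lower in SP too: 7 of 9 tested of 10 myeloid markers fell (summed level 121 to 145 FPKM in SP and 580 to 986 FPKM in MP), 3 of 4 tested of 6 mast cell markers fell (14.1 to 32.9 and 86.0 to 144 FPKM), and so did all 6 tested of 9 T and NK cell markers (0.509 to 3.81 and 79.9 to 260 FPKM), of which CD8B and KLRB1 were listed at 0 in all SP libraries. Of those that fell, 3 myeloid, 2 mast cell and 5 T and NK cell markers were under 1 FPKM in every SP library, so the filter fixed their direction. The myeloid sum in SP was mostly CD14 (105, 101 and 86.9 FPKM), and the mast cell sum mostly KIT (32.3, 13.5 and 19.7 FPKM). Neither gene was called. Both had a higher mean in SP (97.6 against 63.7 FPKM for CD14, 21.9 against 12.2 FPKM for KIT). Of 10 pericyte and smooth muscle markers, 9 were tested, 5 fell and none rose (337 to 537 FPKM in SP and 1189 to 1969 FPKM in MP). The part of these cell types in the members' values was not tested.

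The remaining 40 rows did not pass the filter on low values. MMP8, MMP27, ADAM2, ADAM7, ADAM18, ADAM29 and both loci of ADAM21, 8 rows, were listed at 0 in all 6 libraries. The other 32 had a value somewhere, of which 22 stayed under 1 FPKM in every library and the highest single value was 3.82 FPKM. In 11 of these 32 (34.4%) every SP value lay below every MP value, as in 12.1% of the 8683 untested genes with a value, and in 2 (6.25%) every SP value lay above, as in 8.08%; 20.2% of those genes were apart in either direction. By the estimate from low values, SP was sequenced less deeply, though SP replicate 3 was close to MP replicate 3 (relative depth 1.82 and 1.99). Low values in SP would then carry more counting error.

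**Figure D4:**
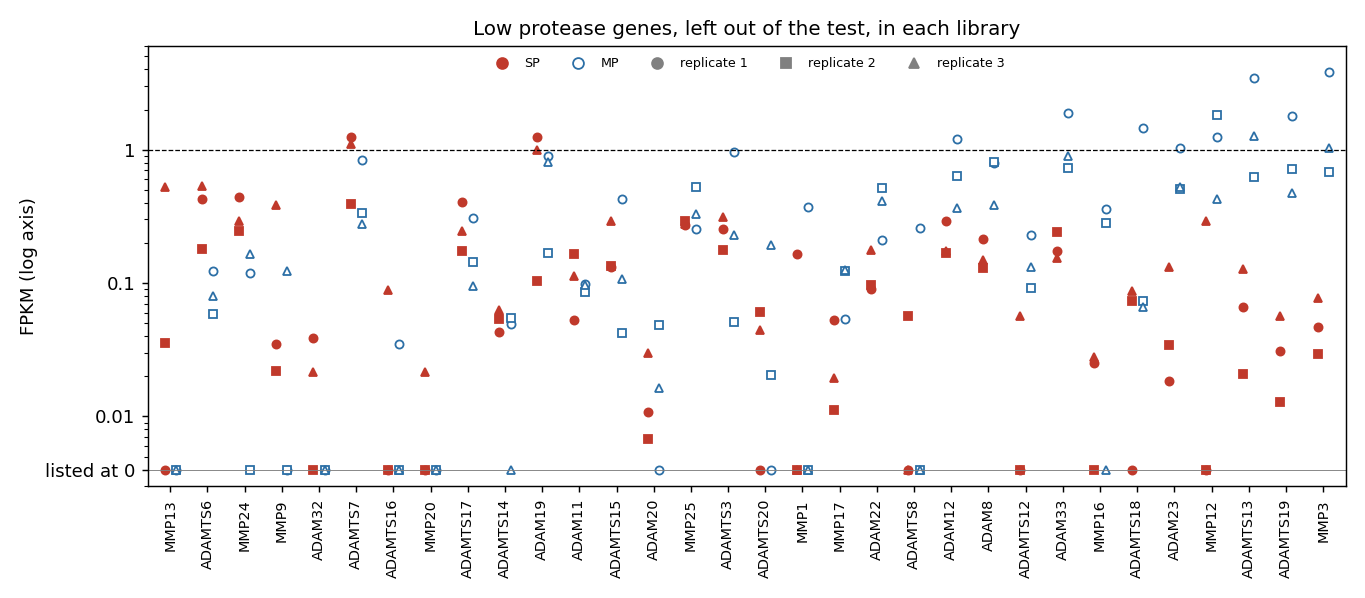
FPKM on a log axis of the 32 members that had a value but were too low for the test, sorted by the ratio of SP to MP mean, with filled symbols for SP, open symbols for MP and values of 0 drawn on the bottom line. MMP3, ADAMTS19 and ADAMTS13 at the right are at 0.0129 to 0.128 FPKM in SP and 0.477 to 3.82 FPKM in MP.

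Among these low genes, MMP3, or stromelysin 1, was at 0.0469, 0.0293 and 0.0771 FPKM in SP and at 3.82, 0.677 and 1.03 FPKM in MP. MMP12, the macrophage elastase, was listed at 0 in SP replicates 1 and 2, at 0.291 FPKM in SP replicate 3 and at 1.24, 1.82 and 0.431 FPKM in MP. ADAMTS13, which cuts von Willebrand factor, was at 0.0663, 0.0208 and 0.128 FPKM in SP and 3.46, 0.628 and 1.26 FPKM in MP. These 3 genes were each apart between the populations. With no filter none of the 3 passed (limma adjusted p = 0.0691, 0.0566 and 0.0596), while ADAM8, ADAM23, ADAM33 and ADAMTS19 did, all lower in SP (0.0413, 0.0257, 0.0413 and 0.0469). In that fit 3.95% of the genes otherwise left out were called lower, against 12.5% of these members, and 2.35% higher, against none of them. ADAM23, a catalytically inactive ADAM known from neurons, was at 0.0184, 0.0346 and 0.132 FPKM in SP and at 1.03, 0.510 and 0.524 FPKM in MP. ADAM33 was at 0.154 to 0.241 FPKM in SP and at 1.90, 0.734 and 0.9004 FPKM in MP, and ADAMTS19 at 0.0129 to 0.0566 FPKM in SP and at 1.80, 0.718 and 0.477 FPKM in MP. The listed ADAM8 locus overlaps 8 tested genes. ADAM12, ADAM22, ADAMTS12 and MMP17 were also lower in every SP library, and ADAMTS6 and MMP24 higher, at levels no higher than 1.21 FPKM; MMP24 shares its listed locus with MMP24OS.

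The enzymes most linked to neutrophils and the soluble collagenases were at or near 0. This does not hold for MMP14, the collagenase of the cell surface, given above. MMP9, the other gelatinase, was at 0.0351, 0.0219 and 0.385 FPKM in SP and at 0, 0 and 0.123 FPKM in MP. The collagenase MMP1 was listed at 0 in 4 of 6 libraries and reached 0.370 FPKM, and MMP13 reached 0.526 FPKM in SP replicate 3 and was listed at 0 in MP. Of 7 listed neutrophil markers 3 were tested and 2 fell (summed level 2.01 to 12.02 FPKM in SP and 24.2 to 41.3 FPKM in MP), and MPO was listed at 0 in SP. S100A8, 1 of the 2 that fell, was under 1 FPKM in every SP library, which fixed its direction. MMP13, MMP12, MMP3, MMP1, MMP8, MMP27, MMP20 and MMP7 lie in this order within 482.7 kb of chromosome 15 (5670942 to 6153611). Of these 8 genes only MMP7, at one end, was high enough to be tested. Among all 20 MMP rows 8 were tested, and among all 34733 named rows 12127. Whether position matters was not tested.

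Other genes of the pathway were taken from 6 lists, chosen with earlier results of these data known; 77 of their genes were tested and 46 called, 22 higher and 24 lower (59.7%, 28.6% and 31.2%, against 39.2%, 20.5% and 18.7% of all tested genes). Of 11 genes listed as inhibitors and restraints 2 rose and 6 fell (median log2 fold change -2.11). Those that fell include PCOLCE and PCOLCE2, which are procollagen enhancers and not inhibitors. The count and median are thus not those of inhibitors alone. SERPINE2, or protease nexin 1, an inhibitor of plasminogen activators and thrombin, was at 6.09, 5.42 and 9.60 FPKM in SP and at 527, 286 and 213 FPKM in MP (log2 fold change -5.34). The cysteine protease inhibitor CST3, the procollagen enhancer PCOLCE2 and the proteoglycan SPOCK1 had log2 fold changes of -2.92, -3.99 and -3.33. TFPI2, an inhibitor of plasmin and other serine proteases, was named after its values were seen: it was at 6556, 7247 and 3872 FPKM in SP and at 828, 1416 and 3589 FPKM in MP, above every TIMP in each library except MP replicate 1, and rose (log2 fold change 1.82; limma adjusted p = 0.0301). RECK, the membrane-anchored MMP inhibitor, was at 1.71 to 1.91 FPKM in SP and 1.57 to 4.18 FPKM in MP and did not pass.

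Of 16 activators and cell surface partners 1 rose and 6 fell (median -0.55). The MMP inducer BSG, the hyaluronan receptor CD44, the clearance receptor LRP1 and the proprotein convertase PCSK6 had log2 fold changes of -1.21, -2.51, -1.77 and -1.96. The gene that rose was FURIN, the convertase that removes the propeptides of membrane-type MMPs, ADAMs and ADAMTSs, at 56.2, 31.5 and 67.3 FPKM in SP and 19.7, 14.9 and 28.3 FPKM in MP (log2 fold change 1.24; limma adjusted p = 0.0284). Of 10 genes for the transport and assembly of ADAM10 and ADAM17, 4 rose and 1 fell (median 0.77). TSPAN17, a tetraspanin partner of ADAM10, rose by 0.85 and SNX33 and PACS2 by 1.43 and 0.78, while the tetraspanin TSPAN33 had -0.82. The calls of all 4 were lost in some fits without a library (limma adjusted p from 0.0512 to 0.131).

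Of 6 ADAMTS-like and related genes 1 rose and 2 fell (median 0.03). ADAMDEC1, an ADAM-like protease of macrophages and gut, was at 0.612, 4.00 and 3.90 FPKM in SP and at 60.8, 95.4 and 31.2 FPKM in MP (log2 fold change -4.08), ADAMTSL2 had 1.32 and ADAMTSL4 -0.67; every SP value of ADAMTSL4 was under 1 FPKM, so the filter fixed its direction. The calls of ADAMTSL2 and ADAMTSL4 were lost in 4 and 9 of 16 alternatives, among them fits without SP replicate 1 or MP replicate 1 (limma adjusted p from 0.0526 to 0.0962). Of 11 matrix substrates of ADAMTS enzymes 2 rose and 6 fell (median -1.96). DCN, LUM, BGN and COL1A2, matrix proteins of fibroblasts, had log2 fold changes of -4.48, -3.26, -1.91 and -3.11. The 2 that rose were THBS1 and VWF, and among the 6 that fell was VCAN, the versican gene, at 1.65, 0.471 and 0.757 FPKM in SP and 19.6, 2.73 and 4.30 FPKM in MP (log2 fold change -1.96). Of 23 membrane proteins shed by ADAM10 or ADAM17, 12 rose and 3 fell (median 1.32). The receptors TNFRSF1B and NOTCH1 rose by 2.62 and 2.00, while the receptor NOTCH2 fell and had -2.17. TNF, a cytokine expressed in leukocytes, had -2.72. TNF was under 1 FPKM in every SP library, so the filter fixed its direction. CDH5, KDR, TEK, TIE1 and FLT1, which rose, are endothelial genes, and all of these but FLT1 are also in the endothelial marker list, as VWF is; DCN, LUM, COL1A2 and COL3A1 are also in the fibroblast marker list.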

How the data were processed

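Poly(A) RNA of 3 SP and 3 MP libraries was sequenced after a stranded mRNA kit and conversion for MGI sequencing, per the labels' protocols. The submitters' processing notes list HISAT2 2.1.0, cutadapt 2.5 and the build ARS-UCD1.2. How FPKM were computed, from which annotation and whether by strand is not given in the sources used here, so reads of overlapping genes may not be told apart. The authors deposited 1 FPKM table per library, per the file headers, and state no further scaling. FPKM depend on the other transcripts of a library, and an exact 0 can be a failed estimate. A row without a gene name (0.185% to 1.91% of the values) was left out.

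Groups and replicate numbers came from the titles. The 12127 genes that reached 1 FPKM in 3 or more libraries were fitted with limma 3.58.1 (R 4.3.3) on log2(FPKM + 1) (eBayes with a trend, two-sided, no block), and only the members' results are given. Named were up to 7 called and up to 3 other tested genes per family, all TIMPs, and up to 4 called genes per pathway list; the remaining tested members are given as well, and 1 gene of a pathway list is not reported here. The members and lists were chosen with earlier results of these data known. Alternatives covered the pseudocount, the filter, scaling, the trend, repeated symbols, a replicate block and each library left out in turn, with the tested genes kept fixed in the last. Relative depth is an estimate, the most frequent ratio to SP replicate 1 among low values. In the other libraries 6.78% to 17.5% of the low genes used lay close to that ratio. Coordinates are the files' loci, counted from 1, introns included, and a locus can be wider than its gene. Chromosome names were matched through the RefSeq gene table of ARS-UCD2.0. No sequences were used here.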

Additional observations from a re-analysis of the deposited data

How the results depend on the processing

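The number of members called higher in SP was 7; it was 3 with no filter on low values, which tests 20810 genes, and ranged from 1 to 10 when 1 library was left out. The number called lower was 6 and was 8 with no filter, 9 without mitochondrially encoded and ribosomal protein genes (8 were then higher) and 4 to 7 without 1 library. The fit without those genes also rescaled libraries to equal sums and filtered anew, testing 13338 genes. Among the 22 members of the main test it added only the call of ADAM15. Its other added calls were thus of members too low for the main test. The parts of removal, rescaling and filter were not told apart. Over all genes 4759 were called, and 2617 to 4938 without 1 library; in the pathway lists 46 were called, and 26 to 50. Over the 16 alternatives the 22 tested members gave 293 results with the same direction and call, 39 lost calls, 10 gained calls and 10 changes of sign. The sign changed only for members that were not called: ADAMTS10 (0.034 with libraries rescaled to equal sums, -0.38 to 0.26 without 1 library), MMP14 (0.077 with equal sums, -0.44 to 0.46 without 1 library), MMP15 (0.15 with equal sums, 0.016 without mitochondrially encoded and ribosomal protein genes, -0.57 to 0.57 without 1 library) and TIMP4 (-0.023 to 1.03 without 1 library). Rescaling to equal sums shifted the median of all genes from 0.0075 to 0.19, and 3290 of the 4835 calls were then higher, against 2490 of 4759. The labels do not say that libraries with the same replicate number share a source, though the file headers give them a common stroma number: deviations from the group means correlated at 0.10, 0.53 and -0.085 for numbers 1 to 3, and SP replicate 1 correlated best with MP replicate 3 (0.28). With the replicate number as a block 4793 genes, 5 higher and 7 lower members were called; ADAMTS4 (limma adjusted p = 0.0568) and MMP28 (0.0558) lost the call and TIMP2 (0.0383) gained it. The lower estimated depth of SP limits what can be said of members near 0.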
